A study of Mus musculus with 12 samples.

Results

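Solute carriers that move ions across membranes, or use the sodium gradient to move other solutes, were followed across 4 cell populations sorted from injured mouse liver. The genes were the rows of the count table whose symbol falls in the families Slc4, Slc5, Slc8, Slc9, Slc12, Slc13, Slc20, Slc24, Slc26, Slc30, Slc34 and Slc39, apart from Slc4a2 and Slc12a2, with at least 10 counts in at least 3 of the 12 libraries. Of 90 such rows among the 53599 in the table, 64 met this rule. All 64 were among the 16210 genes that passed the filter on low counts and were tested. Both filters can be passed through 1 group alone, and 2 of the 64, Slc13a2 and Slc26a9, reached 10 counts only in the BEC libraries. These 2 had to be high there, so their values are given with no test, although the counts of members called include them. Just inside the rule, Slc4a5 and Slc26a8 had 11 counts and Slc26a9 had 13 in their third-highest library. Just outside it, Slc30a2 had 8, Slc26a7 had 7 and Slc24a4 had 6.

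The mice were labelled WT and had been injected with AAV8-TBG-Cre, an adeno-associated virus that expresses Cre recombinase from the hepatocyte promoter TBG, so that EGFP labels hepatocytes and the cells they give rise to. From 1 week after the injection they ate a diet with 0.1% DDC, which injures bile ducts, for 8 weeks. All 4 groups came from livers treated in this way, with no group from uninjured liver, and each held 3 libraries. EGFP+ Cd24- Epcam- cells form the early group, EGFP+ Cd24+ Epcam- cells the intermediate group and EGFP+ Cd24+ Epcam+ cells the full group, the 3 stages of conversion from hepatocyte to biliary cell. EGFP- Epcam+ cells, the biliary epithelial cells (BEC), carry no hepatocyte mark, and a hepatocyte descendant that Cre had missed would sort with them if it displayed Epcam. The labels give no age, sex or strain, do not name the reporter allele, and do not say whether the libraries of a group came from separate mice, so p-values measure only the spread between these samples.

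Hepatocytes take up nutrients from blood, store metals and make the primary bile. Cells lining the bile ducts then change its composition: chloride leaves through channels, is exchanged for bicarbonate, and the sodium and proton gradients that drive this are kept by the sodium pump, by sodium-proton exchangers and by sodium-bicarbonate cotransporters. Ducts also reclaim glucose and other solutes from bile with sodium-coupled carriers in the apical membrane. Zinc and manganese enter the cytosol through the Slc39 (ZIP) family and leave it, outwards or into organelles, through the Slc30 (ZnT) family.

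Libraries held 15112893 to 19731887 counts. Levels are in CPM, a gene's count relative to the library size as scaled by edgeR's TMM method, as mean ± SD of 3 libraries where no single values are given, and 3 counts correspond to 0.128 to 0.273 CPM. Directions are relative to the bulk of genes: with scaling by total counts alone, the median over all genes tested would lie at a log2 fold change of 0.72 in intermediate against early cells and 1.004 in BEC against early cells. Mitochondrial genes took 5.45 to 11.4% of counts in the early libraries and 2.20 to 4.75% in the others. The summed level of 12 hepatocyte markers was 103553 to 107714 CPM in early, 15545 to 20151 in intermediate, 3392 to 4450 in full and 2109 to 2788 in BEC libraries. The 12 biliary markers summed to 1003 to 1947 CPM in early, 9403 to 12277 in intermediate, 11922 to 15136 in full and 14758 to 17917 in BEC libraries. Most of this sum was Spp1 in every group, and Spp1 was called neither at the second step nor in BEC against full cells. Aqp1, on the same list, fell at the second step (log2 fold change -1.54, adjusted p = 0.00699). The 11 macrophage markers summed to 25.4 to 28.8 CPM in early, 30.9 to 42.4 in intermediate, 66.5 to 98.5 in full and 134 to 166 in BEC libraries. In the last 3 groups most of this sum was Csf1r, which stood at 3.94 ± 0.157, 24.6 ± 0.0479, 67.8 ± 6.32 and 127 ± 6.69 CPM in the 4 groups, whereas Cd68 was at 13.96 ± 2.08, 2.74 ± 0.212, 1.62 ± 0.526 and 3.46 ± 1.09 CPM. Of the 10 tested, the other 8 were called in no comparison by the main test. A fit with a replicate block, in which libraries of the same replicate number are paired, called Clec4f and C1qc higher in BEC than in early cells (adjusted p = 0.0495 and 0.0275). The 9 stellate and fibroblast markers summed to 113 to 329 CPM in early, 65.3 to 193 in intermediate, 49.4 to 85.5 in full and 64.4 to 109 in BEC libraries. In BEC 6 of the 9 were lower than in early cells (66.7%, beside 73.1% of all genes called and 33.0% lower), a call that 2 of the 6 kept without each library in turn. At the first step 2 of the 9 were lower (22.2%, beside 54.4% of all genes called and 25.7% lower). With the replicate block 5 were lower, beside 57.2% of all genes called. The 8 endothelial markers summed to 15.5 to 31.9 CPM in early, 7.42 to 19.98 in intermediate, 3.84 to 6.17 in full and 4.62 to 9.64 in BEC libraries. In BEC against early cells 1 of 7 tested was lower, beside 73.1% of all genes called and 33.0% lower. With the replicate block 3 were lower, beside 74.8% of all genes called. At the second step 2 of the 7 were lower (28.6%, beside 40.7% of all genes called and 19.8% lower), and 5 with the replicate block, beside 45% of all genes called. The B cell, T and NK cell and neutrophil lists stayed at or under 1.28 CPM. Erythroid markers summed to 21.8 to 36.5 CPM in early libraries and at most 4.19 elsewhere, and Hbb-bt and the B cell gene Ms4a1 had 0 counts in all libraries. Their part in the differences given here was not tested. In sorted bulk samples, fewer cells that express a gene and less of its RNA per cell cannot be told apart.

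The promoters of 4 members are shown: Slc5a8 and Slc34a2, carriers at their highest level in BEC, and Slc30a1 and Slc30a10, exporters of zinc and manganese at their highest level in early cells. Their choice did not follow the size of change. In BEC against early cells the log2 fold change was -0.92 for Slc30a1 and -5.28 for Slc26a1, which is not shown. The sequences are the 250 bases before the annotated start on the plus strand, read 5′ to 3′, from RefSeq (build GRCm38.p6), at chr10:88885742-88885991 for Slc5a8, chr5:53049103-53049352 for Slc34a2, chr1:191906531-191906780 for Slc30a1 and chr1:185454598-185454847 for Slc30a10. Capitals mark a match, on either strand, to the metal response element (TGCACNC or TGCGCNC, the site of the zinc sensor MTF1) or to the TEAD site GGAATG.
Slc5a8: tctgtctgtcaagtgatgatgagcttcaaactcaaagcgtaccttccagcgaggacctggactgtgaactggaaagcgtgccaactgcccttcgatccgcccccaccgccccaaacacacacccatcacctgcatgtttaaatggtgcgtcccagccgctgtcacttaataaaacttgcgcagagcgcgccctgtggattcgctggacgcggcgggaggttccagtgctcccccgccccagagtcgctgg
Slc34a2: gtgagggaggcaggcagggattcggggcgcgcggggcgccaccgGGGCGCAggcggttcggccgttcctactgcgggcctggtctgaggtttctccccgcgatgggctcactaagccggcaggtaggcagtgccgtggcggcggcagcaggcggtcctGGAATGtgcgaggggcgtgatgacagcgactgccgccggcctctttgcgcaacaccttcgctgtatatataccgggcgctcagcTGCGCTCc
Slc30a1: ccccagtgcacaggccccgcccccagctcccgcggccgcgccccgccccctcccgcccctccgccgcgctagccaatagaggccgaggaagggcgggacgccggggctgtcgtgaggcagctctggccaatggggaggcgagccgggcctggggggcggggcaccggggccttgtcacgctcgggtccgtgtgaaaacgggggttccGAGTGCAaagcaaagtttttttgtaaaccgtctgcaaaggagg
Slc30a10: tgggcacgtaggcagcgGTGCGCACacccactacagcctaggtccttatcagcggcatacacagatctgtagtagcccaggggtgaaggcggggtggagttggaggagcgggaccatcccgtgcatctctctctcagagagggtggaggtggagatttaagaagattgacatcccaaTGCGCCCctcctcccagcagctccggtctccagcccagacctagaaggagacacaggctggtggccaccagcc
The Slc5a8 window held neither motif. The Slc34a2 window held metal response elements starting 206 and 8 bases before the start and a TEAD site 92 bases before it, the Slc30a1 window held a metal response element 43 bases before the start, and the Slc30a10 window held 1 at 73 bases and a pair overlapping each other on opposite strands at 233 and 232 bases. Such letters are common: in the same 250 bases, 21.4% of the 32851 promoters in the table held a metal response element and 12.6% a TEAD site. Counted by gene, as the members are, the shares were 23.8% and 14.4%. Of the 52 members with a promoter there, 19 and 8 held them, a difference for which no test was made. An HNF4 site (CAAAGTCCA) occurred in 1 member, Slc30a3, and in 0.451% of genes. The palindromic HNF1 consensus and a GRHL site (AACCGGTT) occurred in 0.0111% and 0.137% of genes and in none of these members.

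Across the 4 groups 53 of the 64 transporters differed (82.8%, edgeR quasi-likelihood F test, Benjamini-Hochberg adjusted p under 0.05), where 75.6% of all genes tested did. From early to intermediate 18 members rose and 16 fell (53.1% of members called, beside 54.4% of all genes, 28.7% higher and 25.7% lower). From intermediate to full 21 rose and 14 fell (54.7%, beside 40.7% of all genes, 20.8% higher and 19.8% lower). In BEC against full cells 13 were higher and 12 lower (39.1%, beside 21.3%, 10.7% higher and 10.6% lower), and in BEC against early cells 25 were higher and 20 lower (70.3%, beside 73.1%, 40.0% higher and 33.0% lower). The members' share was thus near the background in the first and last of these comparisons and above it in the other two, a difference for which no test was made. Their median log2 fold change was close to 0 in each comparison (0.19, -0.05, 0.01 and 0.02 in that order, with 0.09 for the first when genes with a group at 0 are set at their bound), beside 0.06, 0.01, 0.00 and 0.14 for all genes. Their median absolute log2 fold change was 0.73, 0.57, 0.40 and 1.40, beside 0.59, 0.38, 0.24 and 0.97 for all genes. Scaled by total counts alone, the first comparison gave 38 higher and 7 lower, the second 23 and 10, and the last 40 and 12. Against a minimum change of 2-fold, 13, 15, 7 and 31 members were called.

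**Figure D1:**
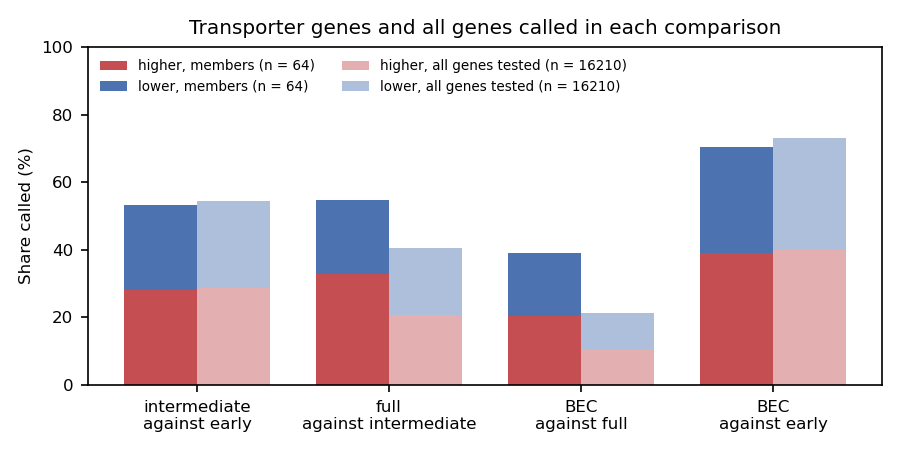
Share of the 64 transporters (dark) and of all 16210 genes tested (pale) called higher (red) or lower (blue) in each comparison, in percent. The bars for members and all genes are of like height at the first step and in BEC against early cells, and the members' bars are the taller pair at 54.7 against 40.7% and at 39.1 against 21.3%.

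**Figure D2:**
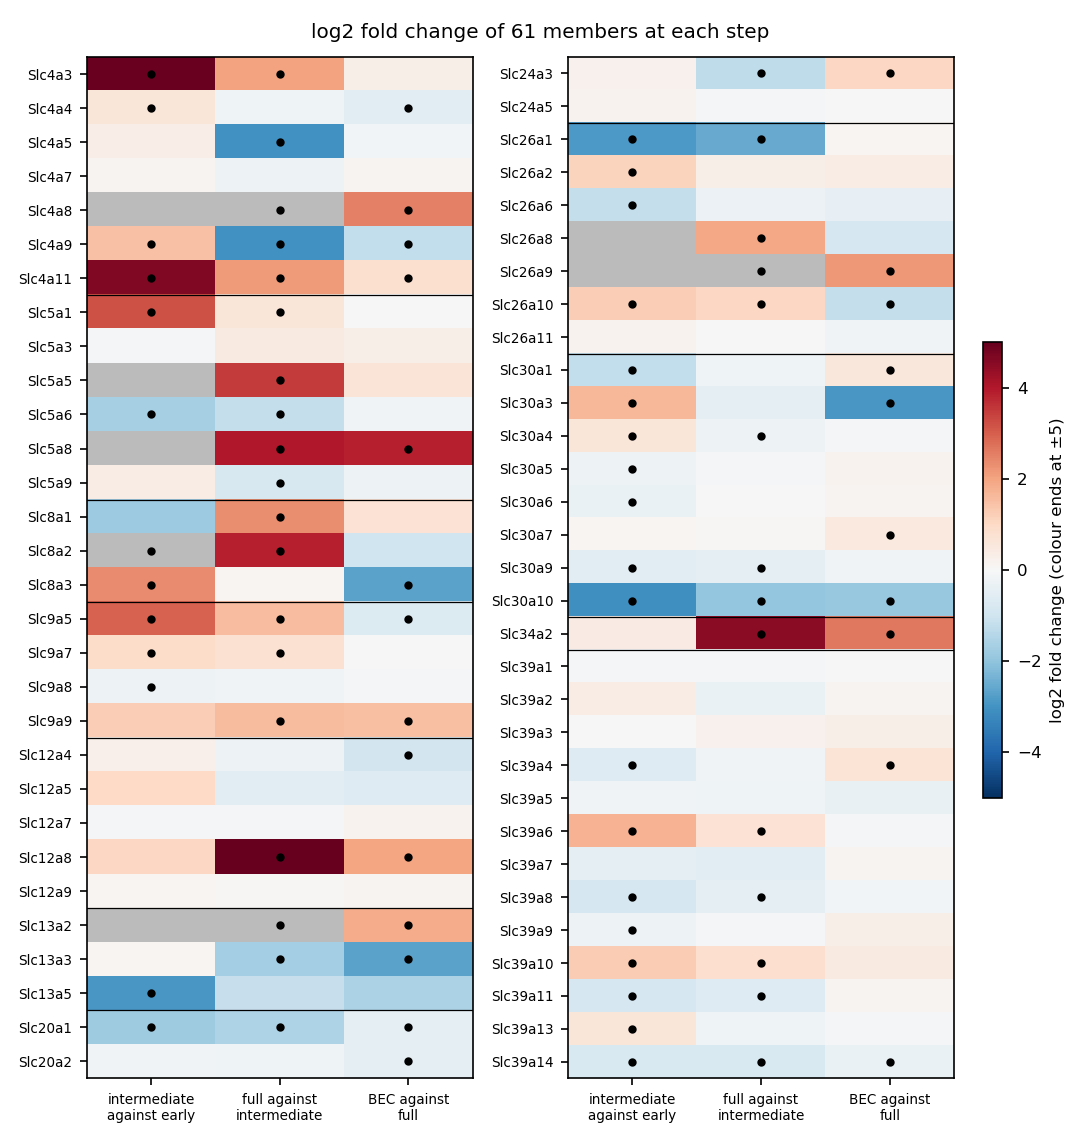
Fitted log2 fold change of 61 of the 64 transporters (rows, by family) at each step (columns), with red for higher, blue for lower and a black dot where edgeR's adjusted p was under 0.05. Grey cells have 3 counts or fewer in 1 of the groups, so no fitted fold is drawn there, and a dot on grey marks a called difference. The dots of Slc13a2 and Slc26a9 are not to be read as results, because these genes met the rule only through the BEC libraries.

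Slc5a8, the sodium-coupled carrier of lactate, butyrate and other monocarboxylates, had 0 counts in all 3 early libraries. Its level was 0.126, 0.1096 and 0 CPM in the intermediate libraries, at or under the level of 3 counts, 1.45, 1.07 and 1.49 CPM in the full libraries and 23.3, 18.1 and 18 CPM in the BEC libraries. The groups did not overlap from intermediate onwards. It rose from intermediate to full (log2 fold change 4.00, SE 0.50, adjusted p = 6.28e-05) and was higher in BEC than in full cells (log2 fold change 3.88, SE 0.27, adjusted p = 1.25e-06), and its BEC level was at least 78.8-fold that of 3 counts per early library (adjusted p = 5.89e-09). Per kilobase of exon, which allows genes to be compared, the BEC level was 3.71 ± 0.566 CPM.

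Among the other Slc5 carriers, Slc5a1 (SGLT1, sodium-glucose cotransport) rose at the first step. Its level was 6.802, 10.2 and 17.6 CPM in early, 93.9, 106 and 119 in intermediate, 141, 162 and 178 in full and 171, 152 and 157 in BEC libraries. The early libraries lay under all others (log2 fold change 3.20, SE 0.24, adjusted p = 1.31e-07). The further rise to full cells was smaller (log2 fold change 0.60, SE 0.21, adjusted p = 0.0361), a call lost without intermediate replicates 1 or 2, full replicates 2 or 3 or BEC replicate 2 (highest adjusted p 0.116), and the BEC and full libraries overlapped (95% interval of the log2 difference -0.45 to 0.44). Per kilobase, Slc5a1 stood at 2.81 ± 1.35 CPM in early and 39.1 ± 4.48 in full cells. Slc5a6, the carrier of biotin and pantothenate, moved the other way, with 59.9, 63.9 and 76.2 CPM in early, 17.6, 23.1 and 22.98 in intermediate, 9.19, 8.21 and 10.5 in full and 7.51, 7.501 and 9.504 in BEC libraries. Each stage lay under the one before, with overlap only between full and BEC. Its level fell at the first step (log2 fold change -1.65, SE 0.15, adjusted p = 5.61e-07) and the second (log2 fold change -1.19, SE 0.15, adjusted p = 3.06e-05). Slc5a3, which imports the osmolyte myo-inositol, had 6.09, 9.28 and 9.87 CPM in early, 7.23, 8.82 and 8.21 in intermediate, 8.51, 11.9 and 13.2 in full and 12.4, 16.3 and 12.6 in BEC libraries. Neighbouring groups overlapped, and only BEC against early passed the test (log2 fold change 0.71, SE 0.21, adjusted p = 0.00791). With the replicate block full against intermediate passed it too (log2 fold change 0.46, adjusted p = 0.0297). The iodide carrier Slc5a5 rose from 0.0994 ± 0.0947 CPM in intermediate to 1.15 ± 0.221 in full cells (adjusted p = 0.00138, log2 fold change 3.48, and 4.21 without intermediate replicate 1). Slc5a9, a sugar carrier, fell from 5.62 ± 1.52 CPM in intermediate to 3.19 ± 0.338 in full cells (adjusted p = 0.0155), a call lost without intermediate replicate 3 or full replicate 2 (highest adjusted p 0.0828) and under scaling by total counts alone.

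In the Slc13 family, 2 carboxylate carriers fell from early to BEC. Slc13a5, the citrate carrier of the hepatocyte surface, had 8.62, 7.002 and 6.39 CPM in early, 1.07, 0.767 and 1.08 in intermediate, 0.425, 0.535 and 0.3499 in full and 0.337, 0 and 0.0914 in BEC libraries. All early libraries lay above all others, and it fell at the first step (log2 fold change -2.91, SE 0.43, adjusted p = 6.63e-05). In BEC against early cells the log2 fold change was -5.64, and -7.11 without BEC replicate 1. Slc13a3, which carries succinate and other dicarboxylates, did not pass the test at the first step, with 43.98, 15.8 and 19.7 CPM in early and 22.8, 21.9 and 40.6 in intermediate libraries, overlapping (95% interval of the log2 difference -0.69 to 0.88). It then stood at 7.57, 6.42 and 12.4 CPM in full and 0.867, 1.82 and 1.46 in BEC libraries. These 2 falls passed the test (log2 fold change -1.69, SE 0.38, adjusted p = 0.0027, and log2 fold change -2.66, SE 0.46, adjusted p = 0.000827). Slc13a2, the other dicarboxylate carrier, had 0.3404, 0.312 and 0.3499 CPM in full and 1.35, 1.03 and 1.28 in BEC libraries, and 3 counts or fewer in all in the early group and in the intermediate group. Its exons share 26.2% of their bases with those of the antisense gene Slc13a2os, so reads of both cannot be told apart if strand was not used in counting.

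**Figure D3:**
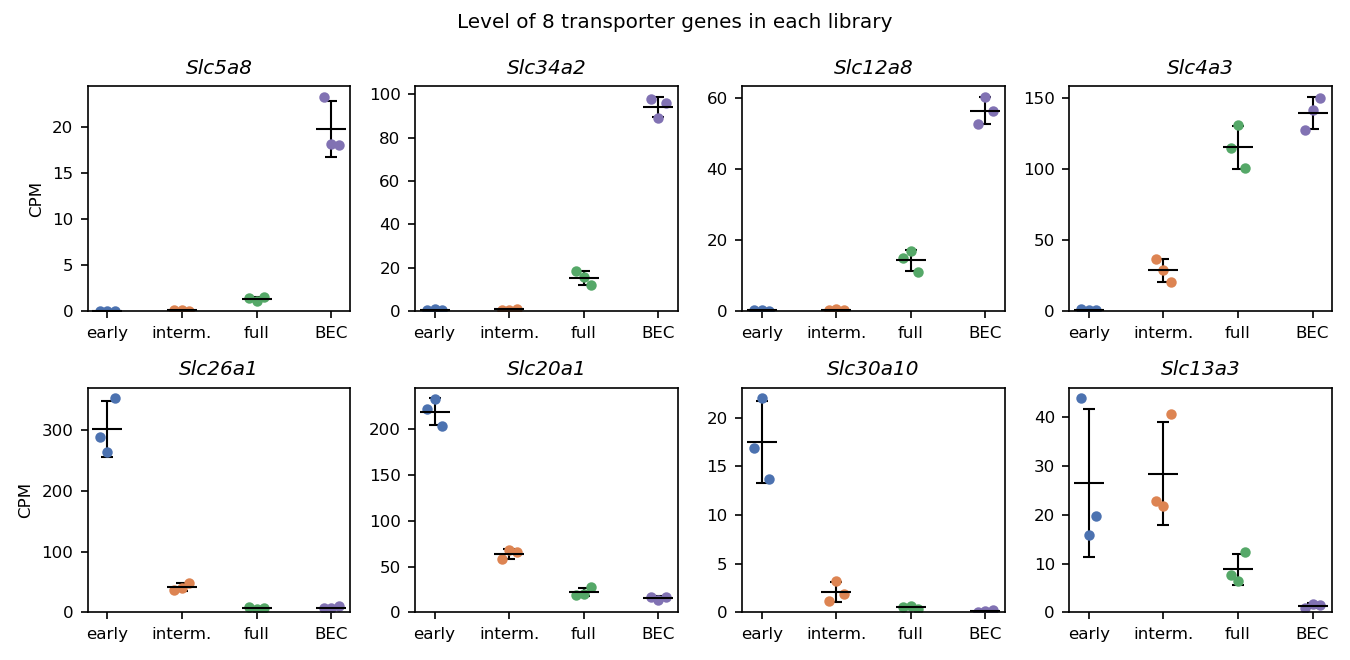
Level of 8 transporters in each library, in CPM on linear axes from 0, with each point a library, the long bar the mean and the whiskers 1 SD of 3 libraries. The upper 4 genes are highest in BEC and the lower 4 in early cells, apart from Slc13a3, whose early and intermediate libraries overlap.

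The phosphate carriers differed in direction. Slc20a1 (PiT1), a sodium-phosphate cotransporter of most cells, had 222, 233 and 203 CPM in early, 57.8, 67.9 and 66.1 in intermediate, 18.98, 19.8 and 27.3 in full and 17.1, 13.7 and 16.8 in BEC libraries. No neighbouring stages overlapped. Its level fell at the first step (log2 fold change -1.78, SE 0.13, adjusted p = 1.37e-07) and the second (log2 fold change -1.54, SE 0.14, adjusted p = 1.43e-06), and the call for a lower level in BEC than in full cells, at a log2 fold change of -0.48, was lost without full replicate 3 or BEC replicate 2 (highest adjusted p 0.142). Slc20a2 (PiT2), its relative, had 162, 130.1 and 139 CPM in early, 154, 115 and 113 in intermediate, 133, 98.2 and 102 in full and 92.2, 77.9 and 73.1 in BEC libraries. Neighbouring EGFP+ groups overlapped, and the difference at the second step was called only with the replicate block (log2 fold change -0.20, adjusted p = 0.0459), with the sign turned under total counts. BEC was lower than early (log2 fold change -0.82, SE 0.15, adjusted p = 0.000214), though the sign turned with scaling by total counts alone. The call for BEC against full (log2 fold change -0.45) was lost without early replicates 2 or 3, intermediate replicate 2, full replicates 1 or 3 or BEC replicates 2 or 3 (highest adjusted p 0.211). Slc34a2 (NaPi-IIb), the apical sodium-phosphate cotransporter of gut and lung epithelium, had 0.237, 0.909 and 0.405 CPM in early and 0.4401, 0.548 and 1.02 in intermediate libraries. It reached 18.3, 15.8 and 11.9 CPM in full and 97.6, 88.9 and 96.1 in BEC libraries. The first 2 groups overlapped and the later ones stood apart from each other. It rose from intermediate to full (log2 fold change 4.49, SE 0.27, adjusted p = 7.93e-08) and was higher again in BEC (log2 fold change 2.62, SE 0.19, adjusted p = 4.93e-07). In BEC against early cells its log2 fold change was 7.53, and 8.16 without early replicate 2.

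Within a library, the share of each gene in the summed CPM per kilobase of the 3 phosphate carriers does not depend on scaling. Slc20a1 made up 61.1 ± 3.21% of it in early, 34.3 ± 5.61% in intermediate, 15.7 ± 4.18% in full and 9.19 ± 0.838% in BEC libraries. Slc34a2 made up 0.12 ± 0.0807%, 0.301 ± 0.157%, 8.92 ± 1.53% and 45.3 ± 2.22% in the same order, and Slc20a2 made up the rest, 75.4 ± 3.29% in full cells at its highest.

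**Figure D4:**
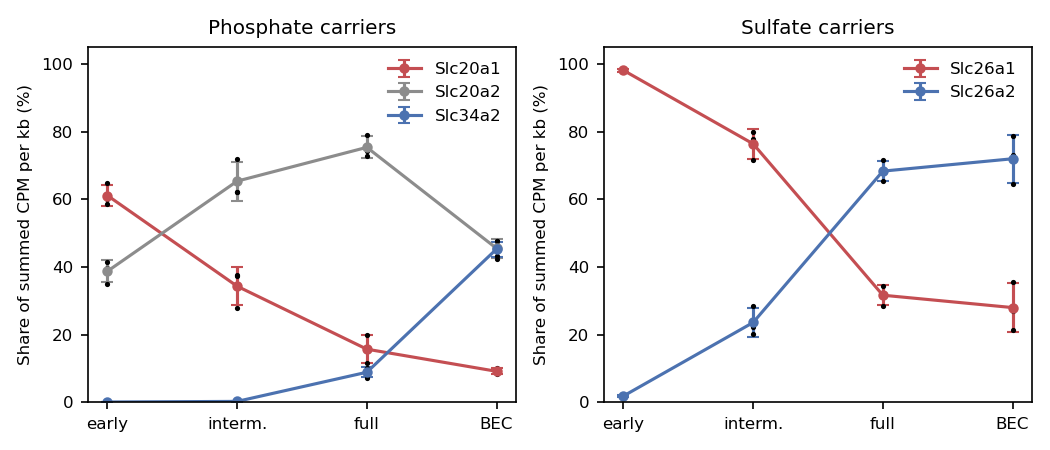
Share of each gene in the summed CPM per kilobase of the phosphate carriers (left) and of 2 sulfate carriers (right), in percent, with black points for libraries, coloured points for means and whiskers for 1 SD (n = 3). Slc20a1 goes from 61.1 to 9.19% while Slc34a2 goes from 0.12 to 45.3%, and Slc26a1 goes from 98.1 to 28.0%.

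In the Slc26 anion exchangers the largest fall was that of Slc26a1 (Sat1), which exchanges sulfate for oxalate or bicarbonate at the hepatocyte surface. Its level was 289, 263 and 353 CPM in early, 36.2, 39.4 and 48.9 in intermediate, 8.47, 5.71 and 7.78 in full and 6.599, 6.803 and 9.87 in BEC libraries. The EGFP+ groups did not overlap, and full and BEC did. Its level fell at the first step (log2 fold change -2.86, SE 0.18, adjusted p = 2.50e-08) and the second (log2 fold change -2.50, SE 0.19, adjusted p = 3.90e-07), and the 95% interval of the log2 difference between BEC and full was -0.34 to 0.51. Its exons share 3.51% of their bases with Idua on the opposite strand. Slc26a2, the sulfate carrier of cartilage and epithelia, rose at the first step to 26 ± 5.04 CPM, from 11.9 ± 3.66 in early cells (log2 fold change 1.12, SE 0.21, adjusted p = 0.000428), and stood at 41.01 ± 7.22 in BEC. Slc26a1 thus made up 98.1 ± 0.371% of the summed CPM per kilobase of these 2 sulfate carriers in early, 76.4 ± 4.38% in intermediate, 31.7 ± 3.01% in full and 28.0 ± 7.15% in BEC libraries. Slc26a6, an apical exchanger of chloride for oxalate or bicarbonate, had 20.2, 15.3 and 20.5 CPM in early, 7.98, 9.095 and 7.42 in intermediate, 6.42, 6.6 and 7.09 in full and 4.53, 5.13 and 5.53 in BEC libraries. Early libraries lay above all others, and it fell at the first step (log2 fold change -1.19, SE 0.16, adjusted p = 2.35e-05). Slc26a9, a chloride channel of airway and stomach epithelium, had 0 counts in all early and intermediate libraries and 1.01, 0.606 and 0.777 CPM in BEC libraries. Slc26a10 rose at both steps, from 0.917 ± 0.051 through 2.19 ± 0.355 to 4.44 ± 0.841 CPM, the second call being lost without intermediate replicate 3 or full replicates 2 or 3 (highest adjusted p 0.0707), and was at 1.94 ± 0.781 CPM in BEC. The call for BEC under full (adjusted p = 0.0121) was lost without full replicate 3 (adjusted p 0.0553). Its exons share 22.8% of their bases with B4galnt1 on the opposite strand. Slc26a8 rose at the second step to 0.5397 ± 0.202 CPM, a call lost without any of 7 libraries and by DESeq2, and Slc26a11 was called in no comparison.

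The Slc4 family, the bicarbonate carriers, held both of the largest fitted rises at the first step and a gene that peaked at the intermediate stage. Slc4a3 (AE3), an exchanger of chloride for bicarbonate, had 1.42, 0.455 and 0.809 CPM in early, 36.5, 28.7 and 20.7 in intermediate, 115, 131 and 101 in full and 127, 142 and 149.8 in BEC libraries. The EGFP+ groups did not overlap, and full and BEC did. It rose at the first step (log2 fold change 4.96, SE 0.30, adjusted p = 1.65e-08) and the second (log2 fold change 2.01, SE 0.19, adjusted p = 2.17e-06). Slc4a11, which moves protons and water rather than bicarbonate, had 0.0791, 0.455 and 0.243 CPM in early, 8.36, 5.97 and 4.698 in intermediate, 29.95, 23.5 and 29.7 in full and 47.9, 50.5 and 46.3 in BEC libraries, with no overlap between groups. It rose at each step, with log2 fold changes of 4.62 (5.24 without early replicate 2), 2.13 and 0.80 and adjusted p values of 2.38e-07, 1.65e-06 and 0.00449. In BEC against early cells the log2 fold change was 7.55, and 8.17 without early replicate 2. Slc4a8, the sodium-driven exchanger of chloride for bicarbonate, had 0 counts in early libraries and 1 count in each intermediate library. It stood at 0.808, 1.16 and 1.27 CPM in full and 4.91, 6.62 and 7.04 in BEC libraries. BEC lay above full (log2 fold change 2.51, SE 0.29, adjusted p = 7.32e-05) and at least 24.7-fold above 3 counts per early library (adjusted p = 6.62e-08), and the ratio of full to intermediate was 18.6, with a 95% counting interval of 6.12 to 92.2.

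Slc4a9 (AE4) was highest at the intermediate stage, with 6.802, 11.3 and 7.61 CPM in early, 19.7, 16.7 and 35.04 in intermediate, 2.21, 2.497 and 4.02 in full and 1.16, 1.305 and 1.28 in BEC libraries. Each group stood apart from the next. It rose at the first step (log2 fold change 1.48, SE 0.29, adjusted p = 0.00072) and fell at the second (log2 fold change -3.03, SE 0.31, adjusted p = 4.44e-06), and the call in BEC against full (log2 fold change -1.22) was lost without full replicate 3 or BEC replicates 1, 2 or 3 (highest adjusted p 0.128). Slc4a4 (NBCe1), the basolateral sodium-bicarbonate cotransporter, was abundant throughout, with 365, 325 and 277 CPM in early, 474, 465 and 525 in intermediate, 403, 392 and 464 in full and 319, 282 and 279 in BEC libraries. Early and BEC libraries overlapped and lay under all intermediate and full libraries. It rose at the first step (log2 fold change 0.60, SE 0.12, adjusted p = 0.000595) and was lower in BEC than in full cells (log2 fold change -0.52, SE 0.12, adjusted p = 0.0049). Slc4a5, an electrogenic relative, fell from 0.878 ± 0.445 CPM in intermediate to 0.102 ± 0.0919 in full cells (log2 fold change -3.02, adjusted p = 0.0058, and -3.63 without full replicate 2). Slc4a7 was at 22.7, 25.3, 21.2 and 23.6 CPM in the 4 groups and was called in none of the 4 comparisons. Slc4a1, the anion exchanger of red blood cells, had 0 counts in all 12 libraries.

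Of the sodium-proton exchangers of the Slc9 family, Slc9a5, best known from brain, was highest in full cells. It had 0.949, 0.273 and 1.13 CPM in early, 7.36, 5.81 and 5.49 in intermediate, 18.3, 17.2 and 18.2 in full and 10.1, 11.7 and 12.02 in BEC libraries, without overlap. It rose at the first step (log2 fold change 2.94, SE 0.29, adjusted p = 1.62e-06) and the second (log2 fold change 1.53, SE 0.21, adjusted p = 5.45e-05), and the call for a lower BEC level (log2 fold change -0.66, SE 0.20, adjusted p = 0.0276) was lost when any 1 of the 6 full and BEC libraries was left out (highest adjusted p 0.0943). Of the exchangers of endosomes and Golgi, Slc9a7 rose at both steps, from 3.62 ± 1.56 to 6.89 ± 1.09 and 11.6 ± 1.79 CPM, the second call being lost without intermediate replicates 1 or 2 or full replicates 2 or 3 (highest adjusted p 0.0945). Slc9a9 was at 0.115 ± 0.0997 CPM in early and 2.31 ± 0.254 in BEC cells, a log2 fold change of 4.29 (adjusted p = 7.79e-05, and 3.70 without early replicate 1). Its rise at the second step was lost without any of 9 libraries. The fall of Slc9a8 at the first step was lost without early replicates 1 or 3 or intermediate replicates 2 or 3 (highest adjusted p 0.0987) and turned sign under scaling by total counts alone. At the second step it was called only with the replicate block (log2 fold change -0.19, adjusted p = 0.0454), and there too the sign turned under that scaling. Slc9a8 was lower in BEC, at 56.1 ± 2.82 CPM, than in early cells, at 79.7 ± 3.25 (log2 fold change -0.51, adjusted p = 0.000164), again with the sign turned under scaling by total counts alone. The apical exchanger Slc9a3 had at most 4 counts in any library and was not among the 64.

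Among the cation-chloride cotransporters, Slc12a8 stood out by its level in full cells and BEC. This gene, whose cargo is debated, had 0.316, 0.182 and 0 CPM in early and 0.314, 0.493 and 0.226 in intermediate libraries. It had 14.8, 16.9 and 10.9 CPM in full and 52.7, 60.4 and 56.2 in BEC libraries. The first 2 groups overlapped at or near the level of 3 counts, and the other 2 stood apart. It rose from intermediate to full (log2 fold change 5.33, SE 0.31, adjusted p = 5.98e-08) and was higher in BEC (log2 fold change 1.99, SE 0.19, adjusted p = 5.49e-06), and in BEC against early cells its log2 fold change was 8.35, and 9.25 without early replicate 1. Potassium-chloride cotransporters let chloride leave the cell and regulate its volume. Slc12a4 (KCC1) had 81.7, 74.8 and 64.7 CPM in early, 88.95, 92.9 and 84.5 in intermediate, 74.8, 74.5 and 72.6 in full and 29.5, 39.9 and 46.7 in BEC libraries. All BEC libraries lay under all others (log2 fold change -0.93, SE 0.14, adjusted p = 0.000219 against full). Slc12a7 (KCC4) had 152, 176 and 193 CPM in early, 145, 162 and 182 in intermediate, 151, 157 and 158 in full and 181, 177 and 174 in BEC libraries. It was called in no comparison, with a 95% interval of -0.19 to 0.25 for the log2 difference of BEC and early. Slc12a9 was called in no comparison either, and Slc12a5 only at the first step with the replicate block (log2 fold change 0.95, adjusted p = 0.0324).

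The sodium-calcium exchangers were low. Slc8a2 (NCX2) had 0, 0.0909 and 0 CPM in early, 0.377, 0.767 and 0.283 in intermediate, 5.23, 8.96 and 7.13 in full and 2.12, 3.31 and 5.21 in BEC libraries. Early had 1 count in all, full stood above intermediate (log2 fold change 3.87, SE 0.45, adjusted p = 1.44e-05), and the BEC libraries lay between those of intermediate and full, with no call against full (adjusted p = 0.0651) except with the replicate block (log2 fold change -1.02, adjusted p = 0.0169). The ratio of intermediate to early was 17.4, with a 95% counting interval of 2.84 to 713. Slc8a3 (NCX3) was seen mainly in the middle stages, at 0.312 ± 0.149 CPM in early, 1.62 ± 0.543 in intermediate, 1.73 ± 0.313 in full and 0.264 ± 0.06499 in BEC cells. It rose at the first step (log2 fold change 2.38, SE 0.46, adjusted p = 0.000615) and was lower in BEC than in full cells (log2 fold change -2.67, SE 0.42, adjusted p = 0.000391). Slc8a1 (NCX1), the exchanger of heart and many other tissues, had 0.158, 0.546 and 0.567 CPM in early, 0, 0.1096 and 0.226 in intermediate, 0.596, 0.758 and 0.437 in full and 0.434, 1.26 and 1.23 in BEC libraries. The rise from intermediate to full (log2 fold change 2.31, adjusted p = 0.025, and 3.21 without intermediate replicate 3) was lost without intermediate replicates 1 or 2 or full replicates 1 or 2 (highest adjusted p 0.0798). Slc24a3, which also uses potassium, was lowest in full cells, at 3.99 ± 0.841 CPM in intermediate, 1.67 ± 0.2397 in full and 3.44 ± 0.538 in BEC cells. It fell at the second step (log2 fold change -1.25, SE 0.28, adjusted p = 0.00307), and the call for BEC above full was lost without full replicates 1 or 2 or BEC replicate 1 (highest adjusted p 0.0711). Slc24a5, the melanosome exchanger, had 0.791, 1.73 and 0.567 CPM in early, 1.57, 0.931 and 0.962 in intermediate, 1.19, 0.981 and 1.01 in full and 1.11, 1.21 and 0.868 in BEC libraries and was called in no comparison. Its exons share 36.5% of their bases with Myef2 on the opposite strand.

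Of the 8 zinc and manganese exporters of the Slc30 family, 5 fell and 2 rose at the first step, where 25.7% of all genes tested fell and 28.7% rose. Under scaling by total counts alone 3 of the 5 falls turned sign, and those of Slc30a10 and Slc30a1 did not. Slc30a10, which exports manganese into bile, had 16.9, 22.01 and 13.7 CPM in early, 1.13, 3.18 and 1.87 in intermediate, 0.596, 0.624 and 0.394 in full and 0.0482, 0.1398 and 0.228 in BEC libraries. No groups overlapped. Both steps were falls (log2 fold change -3.07, SE 0.34, adjusted p = 4.67e-06, and log2 fold change -1.93, SE 0.41, adjusted p = 0.00184), and the call in BEC against full (log2 fold change -1.89) was lost without full replicates 1 or 2 or BEC replicates 1 or 2 (highest adjusted p 0.141). Slc30a1 (ZnT1), the zinc exporter of the plasma membrane, had 68.3, 76.1 and 60.1 CPM in early, 28.5, 29.6 and 28.02 in intermediate, 24.7, 26.6 and 22.6 in full and 37.5, 35.4 and 35.5 in BEC libraries. It fell at the first step (log2 fold change -1.25, SE 0.10, adjusted p = 2.47e-07) and was higher in BEC than in full cells (log2 fold change 0.55, SE 0.10, adjusted p = 0.00116), with no overlap between early, BEC and the other 2 groups. Slc30a9 fell at both steps, from 146 ± 23.9 to 102 ± 12.7 and 74.8 ± 1.87 CPM (adjusted p = 0.00241 and 0.0101), but scaling by total counts alone turned the sign of the first fall and left the second uncalled. The calls for lower Slc30a5 and Slc30a6 at the first step were lost without any of 7 and 8 libraries and turned sign under that scaling. Slc30a4 rose at the first step, from 37.8 ± 2.83 to 57.1 ± 2.65 CPM (log2 fold change 0.59, SE 0.10, adjusted p = 0.00017). Slc30a3, the zinc carrier of synaptic vesicles, rose from 0.846 ± 0.741 to 2.696 ± 0.783 CPM (log2 fold change 1.65, adjusted p = 0.00892, and 2.66 without early replicate 3) and was at 0.249 ± 0.0219 in BEC. Slc30a7 was higher in BEC, at 61.4 ± 9.73 CPM, than in full cells, at 43.3 ± 2.53 (log2 fold change 0.50, SE 0.11, adjusted p = 0.00423).

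The Slc39 family supplied the members with the highest level per kilobase. Slc39a4, the zinc importer of gut epithelium, led in every group, at 130.1 ± 22.03 CPM per kilobase in early, 82.96 ± 8.73 in intermediate, 74.3 ± 2.45 in full and 119.9 ± 2.68 in BEC cells. Next in early cells came Slc39a14 at 96.2 ± 5.56, Slc26a1 at 75.1 ± 11.4, Slc20a1 at 63.4 ± 4.39 and Slc39a1 at 59.3 ± 10.8, and next in BEC came Slc39a1 at 52.1 ± 0.962, Slc5a1 at 38.99 ± 2.47, Slc12a7 at 34.4 ± 0.645 and Slc4a4 at 28.6 ± 2.14. Among neighbours in this order, the SDs overlapped for Slc26a1 and Slc20a1 and for Slc20a1 and Slc39a1 in early cells.

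Per library, Slc39a4 had 319.9, 327 and 429 CPM in early, 211, 219 and 256 in intermediate, 212, 204 and 198 in full and 329, 339 and 325 in BEC libraries. Early and BEC libraries overlapped and lay above the other groups. Slc39a4 fell at the first step (log2 fold change -0.65, SE 0.12, adjusted p = 0.000331), where the sign turned under scaling by total counts alone, and was higher in BEC than in full cells (log2 fold change 0.69, SE 0.12, adjusted p = 0.000659). Slc39a14 (ZIP14), which takes up manganese, iron and zinc in hepatocytes, had 496, 532 and 475 CPM in early, 287, 316 and 288 in intermediate, 188, 174 and 164 in full and 151, 144 and 120.2 in BEC libraries. Each group lay under the one before. It fell at the first step (log2 fold change -0.75, SE 0.10, adjusted p = 2.94e-05; not called under total counts) and the second (log2 fold change -0.76, SE 0.10, adjusted p = 5.09e-05), and the call in BEC against full (log2 fold change -0.34) was lost without full replicates 1 or 2 or BEC replicates 2 or 3 (highest adjusted p 0.129). Slc39a8 (ZIP8), its closest relative, had 27.7, 25.6 and 26.95 CPM in early, 15.7, 12.8 and 16.4 in intermediate, 12.98, 9.32 and 9.97 in full and 8.33, 10.3 and 10.5 in BEC libraries. Early libraries lay above all others (log2 fold change -0.84, SE 0.15, adjusted p = 0.000353; not called under total counts), and the call at the second step (log2 fold change -0.47) was lost without intermediate replicates 1 or 3 or full replicates 2 or 3 (highest adjusted p 0.106) and under total counts. Slc39a11 fell at both steps, from 68.6 ± 4.71 to 38.2 ± 3.22 and 24.6 ± 4.16 CPM (adjusted p = 4.20e-05, not called under total counts, and 0.0008).

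Other zinc importers rose. Slc39a6 went from 5.41 ± 1.304 CPM in early to 18.2 ± 1.69 in intermediate (log2 fold change 1.75, SE 0.15, adjusted p = 4.95e-07) and 29.8 ± 1.64 in full cells (log2 fold change 0.71, SE 0.13, adjusted p = 0.000791), and stood at 27.7 ± 0.556 in BEC. Slc39a10, the relative with which it pairs at the surface, went from 5.03 ± 1.89 to 12.1 ± 3.74 (log2 fold change 1.28, SE 0.30, adjusted p = 0.00228) and 21.7 ± 4.803 CPM, the second call (log2 fold change 0.84) being lost without intermediate replicate 1 or full replicates 2 or 3 (highest adjusted p 0.0813), and stood at 29.98 ± 3.22 in BEC, above full with the replicate block (log2 fold change 0.49, adjusted p = 0.0267). Slc39a13, which sits in the secretory pathway, rose at the first step from 22.7 ± 2.44 to 34.4 ± 1.95 CPM (log2 fold change 0.60, SE 0.11, adjusted p = 0.000271). Slc39a3 was higher in BEC than in early cells (log2 fold change 0.53), a call lost without BEC replicate 3 (adjusted p 0.0512). Slc39a7 was lower there (log2 fold change -0.86), with the sign turned under total counts, and its exons share 84.5% of their bases with the same-strand gene Gm20427. Slc39a1, Slc39a2 and Slc39a5 were called in no comparison, and the call for lower Slc39a9 at the first step was lost without any of 6 libraries and turned sign under total counts. With the replicate block Slc39a9 was also higher in BEC than in full cells (log2 fold change 0.28, adjusted p = 0.0388).

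**Figure D5:**
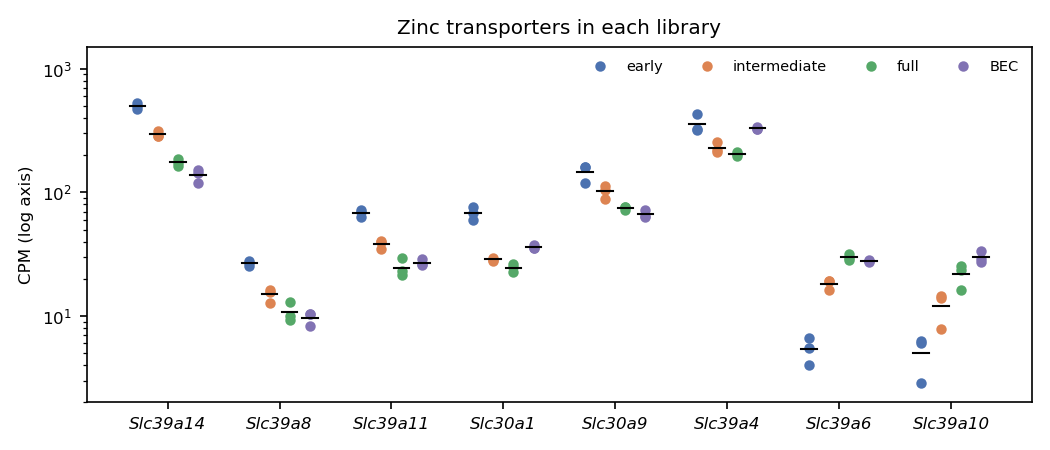
Level of 8 zinc transporters in each library, in CPM on a log axis, with points for libraries and bars for group means. Slc39a14, Slc39a8, Slc39a11 and Slc30a9 go down from early to full cells, Slc39a6 and Slc39a10 go up, and Slc30a1 and Slc39a4 are lowest in the full or intermediate libraries.

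Partners of these transporters were counted from 5 lists, beside the 54.4% of all genes called at the first step, 40.7% at the second, 21.3% in BEC against full and 73.1% in BEC against early cells. Of 9 tested genes of the sodium pump, 4 rose and 2 fell at the first step (66.7% called), 3 rose and 2 fell at the second (55.6%), and 4 were higher and 3 lower in BEC than in full cells (77.8%). Without each library in turn 4 rises and 1 fall, 2 rises and 1 fall, and 3 higher and 3 lower calls held. The pump subunit Atp1b1 was at 202 ± 53.9 CPM in early, 299 ± 13.8 in intermediate, 568 ± 63.5 in full and 1180 ± 191 in BEC cells and rose at each step. The small regulator Fxyd3 went from 0.705 ± 0.189 CPM in intermediate to 13.99 ± 3.18 in full and 92.7 ± 1.42 in BEC cells, both called, while its relative Fxyd1 fell from 214 ± 16.8 CPM in early to 112 ± 5.95, 64.2 ± 2.28 and 3.28 ± 1.71, each step called, the first not under total counts. Of 11 carbonic anhydrases, which make bicarbonate and protons, 2 rose and 6 fell at the first step (72.7%, beside 54.4% of all genes), 4 rose and 4 fell at the second (72.7%, beside 40.7%), and 4 were higher and 1 lower in BEC than in full cells (45.5%, beside 21.3%). The rise of Car9 at the first step and the changes of Car13, Car3 and Car5a at the second were lost without any of 3, 9, 2 and 3 libraries in that order. Car8 was also lower at the second step and higher in BEC than in full cells with the replicate block (adjusted p = 0.0181 and 0.0214). The cytosolic Car2 was at 14.2 ± 4.04, 5.24 ± 0.901, 35.2 ± 8.94 and 209 ± 30.1 CPM across the 4 groups, falling first and then rising.

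Of 11 kinases and ligase parts that control cation-chloride cotransport, 6 rose and 1 fell at the first step (63.6%, beside 54.4% of all genes), 3 rose and 1 fell at the second (36.4%, beside 40.7%), and 3 were higher and 0 lower in BEC than in full cells (27.3%, beside 21.3% of all genes called and 10.7% higher). With the replicate block Oxsr1 and Cab39 rose at the first step as well (adjusted p = 0.0265 and 0.022) and Cab39 fell at the second (adjusted p = 0.0106). Of the 7 calls at the first step 4 held without each library in turn. The rises of Sgk1 and Nedd4l were lost without any of 3 and 4 libraries, by DESeq2 and with median-of-ratios factors. The fall of Klhl3 was lost without either of 2 libraries. Against early cells 8 were higher in BEC and 0 lower (72.7%, beside 73.1% of all genes called, 40.0% higher and 33.0% lower). Wnk2 was at 1.21 ± 1.14, 24.9 ± 1.89, 82.3 ± 5.46 and 114 ± 10.2 CPM, with both first steps called. Stk39 (SPAK), the kinase that acts on the cotransporters, was at 2.75 ± 1.35, 9.81 ± 1.24, 23.2 ± 0.633 and 40.2 ± 1.803 CPM, with all 3 steps called. Of 7 scaffolds that hold apical transporters, 4 rose and 1 fell at the first step (71.4%, beside 54.4% of all genes), 4 rose and 2 fell at the second (85.7%, beside 40.7%), and 2 were higher and 2 lower in BEC than in full cells (57.1%, beside 21.3%). The rise of Msn at the second step was lost without any of 3 libraries, and the higher call of Pdzk1ip1 in BEC without any of 6. Msn was lower in BEC than in full cells with the replicate block (adjusted p = 0.0332). Ezrin (Ezr) was at 37.1 ± 7.002, 104 ± 7.17, 274 ± 25.8 and 528 ± 21.6 CPM and rose at each step. Pdzk1, a scaffold of hepatocyte and kidney carriers, was at 52.3 ± 8.43, 31.6 ± 7.54, 6.87 ± 1.67 and 1.11 ± 0.932 CPM, with falls called at the last 2 steps and, with the replicate block, at the first (log2 fold change -0.74, adjusted p = 0.00546). Of 4 tested zinc buffering genes, 2 fell at the first step and 0 rose, beside 54.4% of all genes called, 25.7% lower and 28.7% higher. The 2 were Mt1 and Slc30a1, which is itself one of the 64 transporters and was counted among them above. With the replicate block Mtf1, the zinc-sensing transcription factor, was lower at this step as well (log2 fold change -0.34, adjusted p = 0.0254). Its sign turned under total counts. Metallothionein Mt1 was at 717 ± 498 CPM in early, 166 ± 102 in intermediate, 73.3 ± 24.6 in full and 112 ± 45.8 in BEC cells, with a wide spread between early libraries. Its first fall passed the test. With the replicate block it was also lower in full than in intermediate cells (log2 fold change -1.05, adjusted p = 0.000751) and higher in BEC than in full cells (log2 fold change 0.59, adjusted p = 0.0436). Mt2 was lower at the second step with the block (log2 fold change -1.60, adjusted p = 0.0126). The calls made without the block for Atp1b1, Fxyd1, Fxyd3, Car2, Wnk2, Stk39, Ezr, Pdzk1 and Mt1 each held without any 1 library. Scaling by total counts alone turned the sign of the first-step falls of Atp1b3, a call also lost without any of 9 libraries, and Klhl3, and left those of Slc9a3r1, Car5b and Car8 uncalled.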

How the data were processed

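RNA from 12 sorted cell populations was sequenced, and the values used are the read counts per gene that the authors deposited as 1 table of 53599 rows. Per the submitters' processing notes, the tools were STAR 2.7.10b, featureCounts 2.0.1 and DESeq2 and the build GRCm39, and the strand setting of counting is not given in the sources used here, so antisense and overlapping genes are uncertain. A second deposited table, of normalized values, was not used. Columns were matched to samples by the labels' descriptions, and 0 count columns were left without a sample. Replicates of a group differed by more than counting noise in every pair (lowest chi-square per degree of freedom 5.23), so all were used. Libraries held 15112893 to 19731887 counts.

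The main test was edgeR 4.0.16 in R 4.3.3, a quasi-likelihood fit over all 12 libraries with TMM factors and filterByExpr by group, which left 16210 genes. The common coefficient of variation was 14.8%, and Benjamini-Hochberg adjustment ran over all genes tested, with a threshold of 0.05. Alternatives were DESeq2 1.42.0, other scalings and filters, a minimum 2-fold change, fewer libraries and a replicate block. Folds against a group with 0 counts use a floor of 3 counts per library, and 95% counting intervals (exact binomial) cover counting error only. Exon lengths came from GENCODE M21 (GRCm38), matched for 64 of 64 members. Because builds differ, the only coordinates given are those of the promoter windows, on GRCm38.p6.

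The residuals of libraries with the same replicate number correlated at 0.121 to 0.322 in intermediate against early, full against intermediate and BEC against full. In BEC against early they correlated at 0.0442 to 0.145. The labels do not say whether a number marks the same mouse in different groups. The main test did not use the numbers, and the fit with a replicate block used them in all 4 pairwise comparisons. Members and lists were chosen with earlier results of these data known. Given by library are members of a fixed list of known roles and, per comparison, up to 4 in each direction with the largest change, at least 5 CPM and no overlap of replicates. A few further members are given by group mean, and 3 are not reported here by name.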

Additional observations from a re-analysis of the deposited data

How the results depend on the processing

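The members called were 34, 35, 25, 45 and 53 in intermediate against early, full against intermediate, BEC against full, BEC against early and over the 4 groups. Requiring a minimum 2-fold change left 13, 15 and 7 in the first 3 of these and 31 in the fourth. Leaving out 1 library at a time gave 31 to 35, 24 to 36, 17 to 26, 43 to 45 and 50 to 54, with 24 in the second without full replicate 2 and 17 in the third without BEC replicate 2. Of the 139 calls over the 4 pairwise comparisons, 108 held without each library in turn. DESeq2 kept 136, median-of-ratios factors kept 137, and a fit with only the 6 libraries compared kept 124 and gave no value for 9. With the replicate number as a block, the counts were 35, 38, 28, 45 and 54, and the block changed none of the 139 calls and added 7. With no filter on low counts 131 were kept, and with a mean of at least 50 counts 108, with no value for 29. Scaling by total counts alone kept 118, left 11 uncalled and turned the sign of 10. It gave 38 higher and 7 lower members in the first comparison (84.4% higher), 23 and 10 in the second (69.7%), and 40 and 12 in the fourth (76.9%), where the median of all genes tested lay at 0.72, 0.21 and 1.004 on the log2 scale. Under it the log2 fold change was 0.41 for Slc9a8, 0.40 for Slc30a5, 0.34 for Slc30a6, 0.14 for Slc30a9, 0.013 for Slc39a4 and 0.40 for Slc39a9 in intermediate against early, and 0.19 for Slc5a9, 0.36 for Slc9a8, 0.045 for Slc20a2 and 0.0066 for Slc39a7 in BEC against early. The rule with 10 counts in 1 column gave 66 members, and with 20 counts in 3 columns 59. At this depth, genes at or under 3 counts in both groups, such as Slc5a8 and Slc4a8 in early and intermediate cells, cannot be compared. Some differences that were not called changed sign. Under total counts alone the log2 fold change in full against intermediate was 0.0071 for Slc9a8 and 2.9e-05 for Slc20a2, and in intermediate against early it was 0.31 for Mtf1. For Slc5a1 in BEC against full the log2 fold change was 0.0075 by DESeq2 and with median-of-ratios factors, 0.0087 with a mean of at least 50 counts, and -0.0897 to 0.076 without 1 library. For Slc12a7 in BEC against early it was -0.015 with 6 libraries and -0.059 to 0.11 without 1 library. Without 1 library it was -0.25 to 0.68 for Slc13a3 in intermediate against early and -0.13 to 0.20 for Slc26a1 in BEC against full. The cause was not tested for any of these.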

Other observations

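Of the 26 rows of these families that did not meet the rule, 4 had 0 counts in every library: Slc4a1, the choline carrier Slc5a7, the monocarboxylate carrier Slc5a12, which is the nearest relative of Slc5a8, and the zinc transporter of insulin granules, Slc30a8. Some carriers of the kidney tubule among these 26 were also near 0, with at most 1 count in any library for the phosphate carrier Slc34a1, 2 for its relative Slc34a3, 3 for the glucose carrier Slc5a2, 1 for the sodium-potassium-chloride cotransporter Slc12a1 and 8 for the thiazide target Slc12a3. The highest count among the 26 was 27, for Slc26a7, in a single library.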
